A study of Mus musculus with 90 samples.

Results

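Cholesterol synthesis, uptake and turnover was followed through 33 listed genes among the 38561 genes of the deposited tables, in both the striatum and cortex taken from 45 mice. The list holds 7 genes of the mevalonate steps, 11 of sterol synthesis from squalene to cholesterol, 5 of SREBP control, 8 of transport and 2 of turnover, and each symbol was matched to 1 Ensembl ID. All mice were C57BL6/J, were 9 months old, and had received either vehicle or PF-02545920, which inhibits PDE10A, a phosphodiesterase of striatal neurons, as an oral dose each day starting at 5 weeks of age. Wild-type (WT) mice received vehicle only. The other mice carried on both alleles the Q175 knock-in, in which Htt holds an expanded CAG repeat, a model of Huntington's disease, and received vehicle or 0.32, 1.0 or 3.2 mg/kg of the inhibitor. Each tissue of the right hemisphere came from 9 WT and 7 Q175 mice given vehicle. The low, middle and high dose had 10, 10 and 9 Q175 mice. Every group had 5 females. No WT mouse received the inhibitor, so a dose effect is known on the Q175 background only. Mice are named by sex and number within their arm, so that F4 is female 4.

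The brain makes nearly all of its own cholesterol, because lipoproteins of the blood do not cross into it. Astrocytes and oligodendrocytes are its main producers, and astrocytes hand cholesterol to neurons on particles carrying apolipoprotein E. Synthesis genes are switched on by the factor SREBP2, which leaves the endoplasmic reticulum with its escort SCAP when sterols are low and is held back by INSIG proteins when they are high. Neurons remove surplus cholesterol through the hydroxylase CYP46A1, whose product leaves the brain and activates the liver X receptors.

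All 33 genes passed the expression filter in both tissues. Library totals were 30.5 M to 44.9 M counts for striatum, and cortex libraries held 37.2 M to 45.8 M. Mean counts of the members ran from 183 per library for Nr1h3 to 43676 for Apoe in the striatum, and from 132 to 44513 for the same genes in the cortex. Htt, which carries the knock-in, was lower in Q175 than in WT vehicle mice by a log2 change of -0.78 in the striatum and -0.81 in the cortex. The tissue labels were checked on fixed markers in WT mice: 9 of 9 medium spiny neuron genes were higher in the striatum and 7 of 7 cortical excitatory neuron genes were lower. Strand use in counting is not given, so reads of Fdft1 and of Ctsb, which overlap on opposite strands by 774 exonic bases, cannot be told apart. The same holds for overlaps of 109 to 985 exonic bases of Hmgcs1, Idi1, Lss, Cyp51, Scap, Srebf1 and Npc1 with genes on the other strand, while Fdps, Tm7sf2 and Nr1h3 overlap a gene on their own strand.

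RefSeq promoter windows on GRCm38.p6, from 250 bases before to 50 bases after a gene start, were matched for 27 of the 33 genes, the others being Fdft1, Sqle, Fdps, Npc1, Abcg1 and Stard4. They were searched on both strands for CCAAT, the letters bound by the factor NF-Y, and for TCACNCCAC, the letters of the classical sterol response element. Some genes had more than 1 window, and CCAAT stood in a window of 21 of the 27 members (77.8%), against 41.1% of 27025 genes. By role it was found in 5 of 6 mevalonate genes, 9 of 9 sterol synthesis genes, 4 of 5 control genes, 1 of 5 transport genes and 2 of 2 turnover genes. TCACNCCAC was found in 1 member, Hmgcs1, 137 bases before the start, against 1.44% of all genes. The windows of 8 members are shown because these genes were called lower in Q175 than in WT vehicle mice in both tissues, as described below, and had a window that could be shown. For Apoe, which had 3 windows, the one at the annotated gene start is given. Acat2 and Apoe hold neither set of letters and so have no capitals. Capitals mark CCAAT and TCACNCCAC on either strand, and a match of letters is a description, not a binding site.
Acat2 (chr17:12960676-12960975, minus strand): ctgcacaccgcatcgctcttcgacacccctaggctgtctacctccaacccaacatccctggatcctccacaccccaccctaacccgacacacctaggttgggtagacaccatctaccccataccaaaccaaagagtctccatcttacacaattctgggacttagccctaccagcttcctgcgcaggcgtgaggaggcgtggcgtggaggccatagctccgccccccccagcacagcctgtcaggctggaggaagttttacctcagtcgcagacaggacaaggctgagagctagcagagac
Hmgcs1 (chr13:119690101-119690400, plus strand): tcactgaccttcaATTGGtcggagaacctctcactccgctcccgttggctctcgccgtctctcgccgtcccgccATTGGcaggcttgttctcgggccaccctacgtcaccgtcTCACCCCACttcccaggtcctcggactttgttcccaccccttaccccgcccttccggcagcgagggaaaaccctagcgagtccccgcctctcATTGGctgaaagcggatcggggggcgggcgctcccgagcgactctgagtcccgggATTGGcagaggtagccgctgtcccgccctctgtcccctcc
Idi1 (chr13:8885356-8885655, plus strand): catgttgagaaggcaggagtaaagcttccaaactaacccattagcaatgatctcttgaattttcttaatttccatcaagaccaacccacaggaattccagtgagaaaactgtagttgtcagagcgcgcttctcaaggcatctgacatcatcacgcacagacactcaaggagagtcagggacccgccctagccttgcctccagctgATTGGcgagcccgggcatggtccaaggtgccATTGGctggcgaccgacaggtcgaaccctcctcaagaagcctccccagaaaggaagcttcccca
Msmo1 (chr8:64733529-64733828, minus strand): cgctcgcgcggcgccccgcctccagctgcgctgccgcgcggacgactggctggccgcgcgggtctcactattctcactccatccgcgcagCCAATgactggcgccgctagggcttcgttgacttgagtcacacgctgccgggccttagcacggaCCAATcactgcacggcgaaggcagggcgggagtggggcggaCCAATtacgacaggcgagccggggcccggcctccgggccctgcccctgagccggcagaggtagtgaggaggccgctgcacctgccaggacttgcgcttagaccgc
Cyp51 (chr5:4104648-4104947, minus strand): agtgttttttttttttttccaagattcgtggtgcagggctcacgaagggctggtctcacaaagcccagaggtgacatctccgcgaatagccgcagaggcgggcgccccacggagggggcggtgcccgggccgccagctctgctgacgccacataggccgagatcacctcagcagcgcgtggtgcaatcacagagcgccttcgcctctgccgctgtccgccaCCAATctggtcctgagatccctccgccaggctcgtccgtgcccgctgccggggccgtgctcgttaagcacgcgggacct
Insig1 (chr5:28071162-28071461, plus strand): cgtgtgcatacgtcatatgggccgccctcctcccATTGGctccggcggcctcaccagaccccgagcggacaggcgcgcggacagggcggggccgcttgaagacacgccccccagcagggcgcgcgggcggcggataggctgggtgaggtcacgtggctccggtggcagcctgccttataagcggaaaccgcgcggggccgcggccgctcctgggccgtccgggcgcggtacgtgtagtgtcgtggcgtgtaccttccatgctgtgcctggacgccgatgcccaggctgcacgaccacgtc
Apoe (chr7:19699139-19699438, minus strand): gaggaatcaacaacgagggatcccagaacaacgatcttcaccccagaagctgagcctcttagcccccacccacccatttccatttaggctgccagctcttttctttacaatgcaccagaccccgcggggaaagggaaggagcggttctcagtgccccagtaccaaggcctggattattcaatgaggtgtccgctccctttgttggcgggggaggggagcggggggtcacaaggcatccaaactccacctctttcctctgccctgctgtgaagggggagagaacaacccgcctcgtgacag
Cyp46a1 (chr12:108334066-108334365, plus strand): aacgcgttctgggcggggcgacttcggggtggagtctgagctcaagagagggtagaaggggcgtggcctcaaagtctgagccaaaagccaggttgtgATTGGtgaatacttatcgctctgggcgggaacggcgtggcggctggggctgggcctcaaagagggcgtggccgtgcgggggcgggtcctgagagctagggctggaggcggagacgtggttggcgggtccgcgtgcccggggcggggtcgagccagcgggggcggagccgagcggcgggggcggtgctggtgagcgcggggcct

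In WT mice the order of the genes by FPKM, a level scaled by gene length and library depth, began with the same 6 genes in both tissues. Apoe, the main lipoprotein of the brain, was first by a wide margin with 1209 ± 136 FPKM in the striatum and 1248 ± 36.6 FPKM in the cortex (SD, n = 9). Cyp46a1 was second, with 121.3 ± 10.8 FPKM in the striatum and 103.8 ± 3.50 FPKM in the cortex. Hmgcs1, which makes the precursor that enters the mevalonate pathway, came next with 47.3 ± 4.41 FPKM in the striatum and 83.5 ± 4.3 FPKM in the cortex. Srebf2, Msmo1 and Fdps followed, between 28.1 and 39.9 FPKM in the striatum and between 40.1 and 50.2 FPKM in the cortex. The ranges over mice of the neighbours Srebf2 and Msmo1 overlapped in the striatum and did not overlap in the cortex. Nr1h3, the liver X receptor alpha, was last with 2.29 ± 0.368 and 1.81 ± 0.115 FPKM.

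Most synthesis genes were lower in the striatum than in the cortex of the same WT mice, and most transport genes were higher. Of the 18 genes of the mevalonate and sterol steps 16 were lower in the striatum and 0 higher, and the exceptions were Acat2 and Ebp (log2 0.02 ± 0.0266 and 0.08 ± 0.0429, SE). This was edgeR's quasi-likelihood test with the mouse as a block, in which 73.6% of all 18014 genes tested differed at a Benjamini-Hochberg adjusted p under 0.05, 38.3% higher and 35.3% lower in the striatum. The median log2 difference was -0.42 over the 18 synthesis genes, -0.30 over the 33 members and 0.02 over all genes. Among synthesis genes the largest differences were those of Sqle (-0.94 ± 0.0362, adjusted p = 4.5e-27), the oxygenase that commits squalene to sterols, Hmgcs1 (-0.76 ± 0.0351, adjusted p = 4.01e-24), and Mvd, which ends the mevalonate steps (-0.63 ± 0.0595, adjusted p = 4.3e-13). Among transport genes 5 were higher in the striatum and 2 lower. The exporters Abcg1 (0.70 ± 0.0311) and Abca1 (0.48 ± 0.0506), the lysosomal sterol carriers Npc1 (0.50 ± 0.0391) and Npc2 (0.51 ± 0.0286) and Nr1h3 (0.40 ± 0.0664) were higher, and Stard4 and Nr1h2 lower. Cyp46a1 was higher in the striatum by 0.28 ± 0.0413, and Apoe did not pass the test (-0.01 ± 0.0459, adjusted p = 0.874). Of 9 astrocyte markers 6 were lower and 2 higher in the striatum, with a median of -0.19. All 9 oligodendrocyte markers were higher there, by a median of 1.21, as were all 9 microglia markers, by a median of 0.30. The 5 pan neuronal markers were lower, by a median of -0.54, and the part of these markers in these differences was not tested. In bulk tissue fewer cells of a type and less RNA per cell cannot be told apart.

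**Figure D1:**
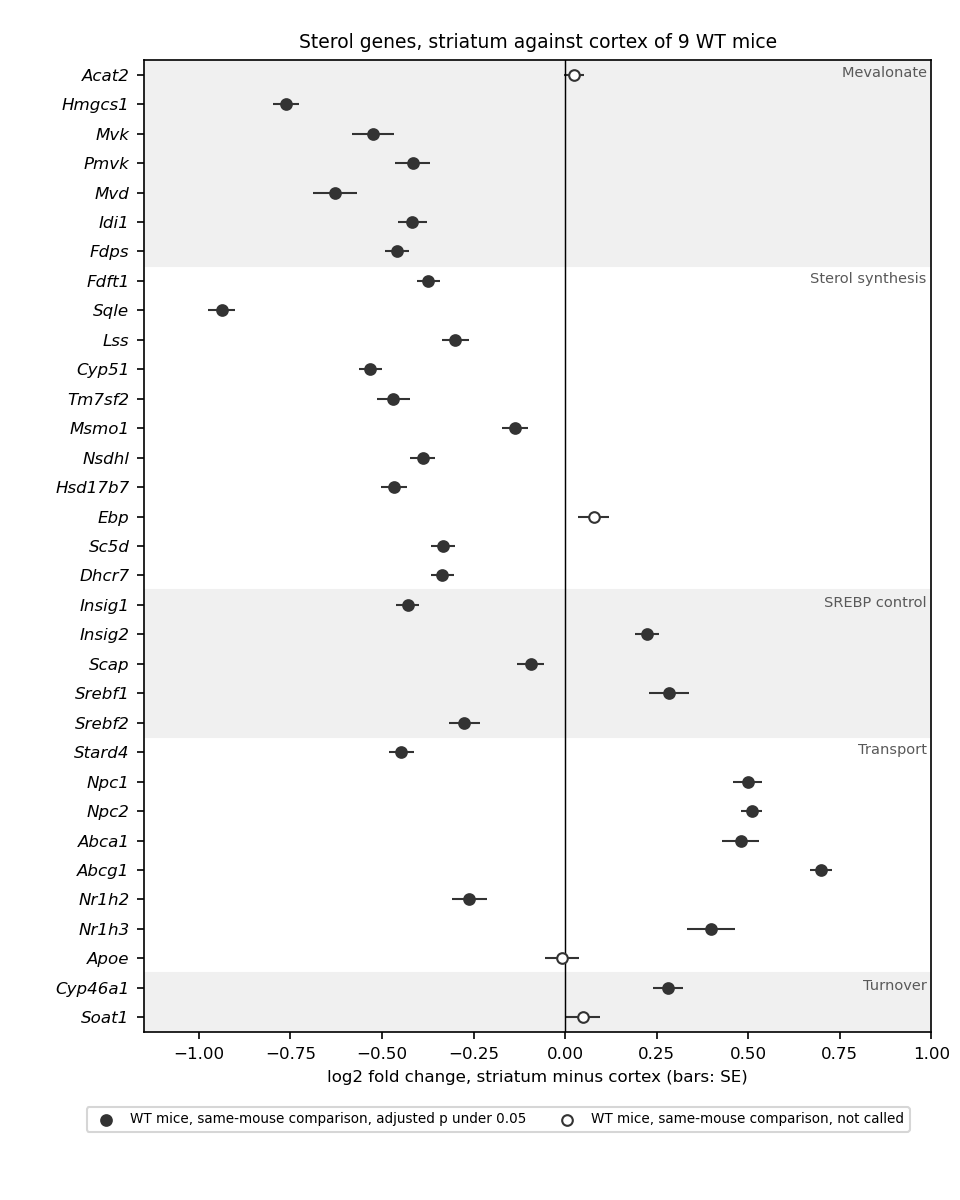
Log2 fold change of each of the 33 sterol genes between striatum and cortex of the 9 WT mice (x axis; bars are SE), with genes grouped by role from top to bottom and filled points for adjusted p under 0.05. All but Acat2 and Ebp of the 18 synthesis genes lie left of zero past the test, with Sqle at -0.94, while Abcg1 reaches 0.70.

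In the striatum of Q175 vehicle mice 12 of the 33 genes were lower than in WT vehicle mice and 4 were higher. In the cortex 13 were lower and 3 higher. The lower genes held mevalonate enzymes, squalene and sterol enzymes, Insig1, Stard4, Apoe and Cyp46a1 in both tissues, and the higher ones Srebf1 and Npc1 in both. These counts are to be read against large changes elsewhere, since 45.1% of 17315 genes were called in the striatum (23.2% lower, 21.9% higher) and 30.4% of 17603 in the cortex (16.4% lower, 14% higher). The median log2 change of the members was -0.05 in the striatum and -0.07 in the cortex, against 0.00 over all genes in both. A term was also added for the tag L1 to L8 of the library names, whose meaning the labels do not give. With it 7 members were lower and 4 higher in the striatum, with 36.7% of all genes called (3382 lower, 2964 higher). The median log2 change was then -0.005 over the members and -0.003 over all genes. The tags were spread unevenly over the arms, and in each tissue some stood in WT but in no Q175 vehicle library. Tag and arm are thus partly confounded, and where a call was lost with the tag term their parts cannot be told apart. On FPKM as deposited all genes shifted by a median of 0.11 in the striatum, with 7223 higher and 2372 lower in place of 3794 and 4023, and 13 members were then higher and 5 lower. With that shift removed 5 were higher and 12 lower. The striatal calls lost on FPKM as deposited were those of Hmgcs1, Idi1, Cyp51, Srebf2, Stard4, Abcg1 and Apoe, and the cortical ones those of Acat2, Nsdhl, Sc5d and Dhcr7.

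**Figure D2:**
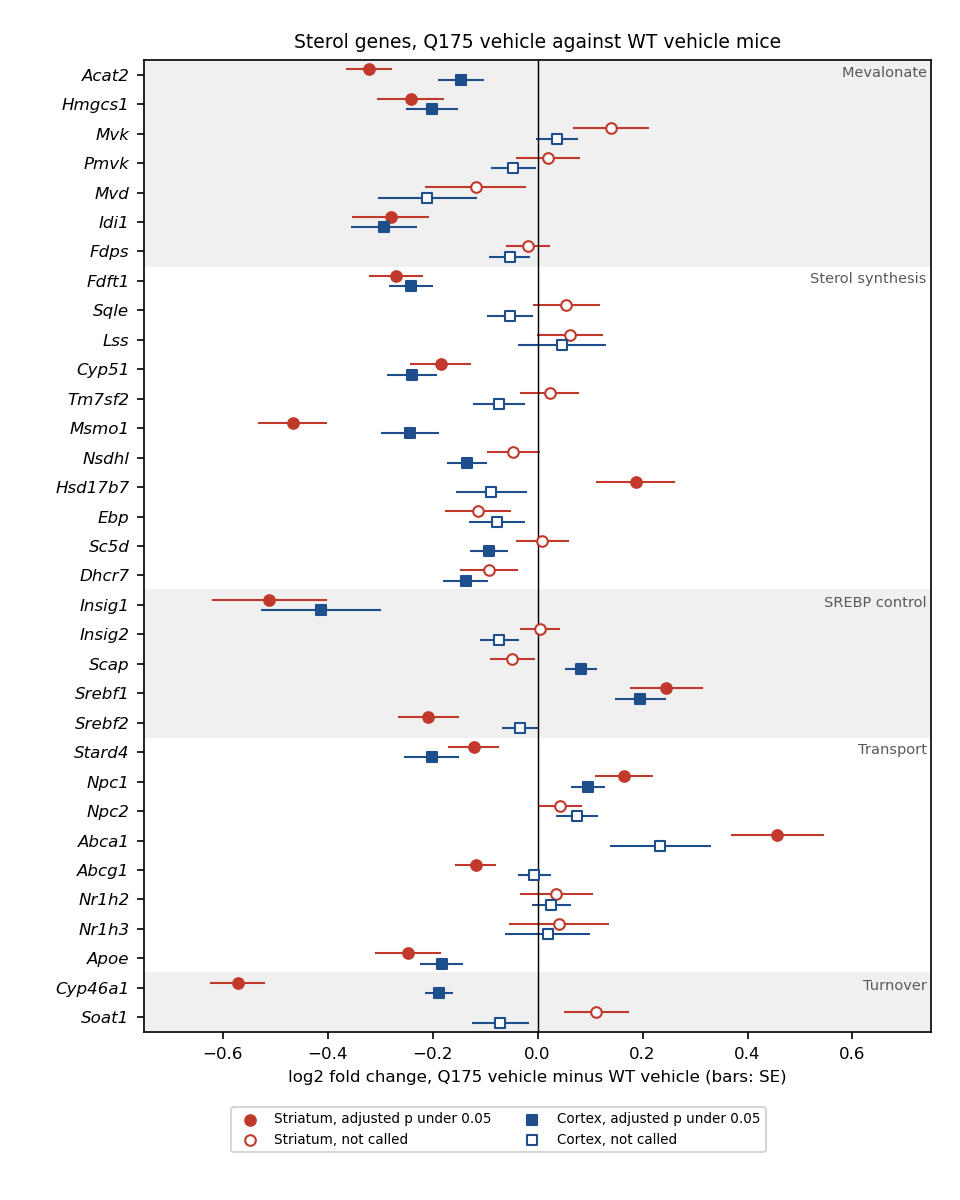
Log2 fold change of each sterol gene between Q175 vehicle and WT vehicle mice (x axis; bars are SE), in the striatum (circles) and the cortex (squares), with genes grouped by role and filled symbols for adjusted p under 0.05. Cyp46a1 and Insig1 lie farthest left in the striatum, at -0.57 and -0.51, and Abca1 farthest right at 0.46.

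Of the 7 mevalonate genes, which carry acetyl units to farnesyl diphosphate, the same 3 were lower in both tissues and none was higher. Over all genes tested, 23.2% were called lower and 21.9% higher in the striatum, and 16.4% lower and 14% higher in the cortex. Acat2 (ENSMUSG00000023832, chromosome 17, 12942890 to 12960747), which joins acetyl units in the first step, ranged from 40.5 to 48.1 CPM (counts scaled to library size with TMM factors) in WT striatum with a median of 44.1. In Q175 vehicle striatum it ranged from 33.2 to 38.3 CPM with a median of 34.9. The groups did not overlap, and the log2 change was -0.32 ± 0.0444 (adjusted p = 6.26e-08). In the cortex the ranges overlapped, with 41.2 to 46.2 CPM (median 43.9) in WT and 36.7 to 41.5 CPM (median 39.5) in Q175 vehicle mice, and the change was -0.15 ± 0.0442 (adjusted p = 0.00921). Hmgcs1 (ENSMUSG00000093930, chromosome 13, 119690379 to 119708260) ran from 136.2 to 186.7 CPM (median 160.1) in WT striatum and from 123.7 to 152.8 CPM (median 136.4) in Q175 vehicle striatum. Its cortical levels ran from 249.4 to 292.9 CPM (median 280.9) in WT and from 223.0 to 254.5 CPM (median 238.8) in Q175 vehicle mice. Its ranges overlapped in both tissues, with log2 changes of -0.24 ± 0.0643 (adjusted p = 0.00181) and -0.20 ± 0.0496 (adjusted p = 0.0014). The striatal call of Hmgcs1 was lost with the tag term (-0.20, adjusted p = 0.0626).

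Idi1 (ENSMUSG00000058258, chromosome 13, 8885501 to 8892451), the isomerase of the isoprene unit, ran from 36.9 to 45.5 CPM (median 42.9) in WT striatum and from 32.4 to 37.6 CPM (median 33.5) in Q175 vehicle striatum. Cortical levels ran from 50.08 to 60.5 CPM (median 56.3) in WT and from 43.5 to 50.07 CPM (median 45.5) in Q175 vehicle mice. The striatal ranges overlapped narrowly and the cortical ones did not, the highest Q175 vehicle library lying just under the lowest WT library. The log2 changes were -0.28 ± 0.0730 (adjusted p = 0.0015) and -0.29 ± 0.0632 (adjusted p = 0.000299). Mvk, Pmvk, Mvd and Fdps did not pass the test in either tissue, with log2 changes from -0.21 for Mvd in the cortex to 0.14 for Mvk in the striatum.

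Of the 11 sterol synthesis genes 3 were lower and 1 higher in the striatum, and 6 were lower and 0 higher in the cortex. The share of all genes called in either direction was 45.1% in the striatum and 30.4% in the cortex. Fdft1 (ENSMUSG00000021273, chromosome 14, 63145150 to 63179578), the squalene synthase that opens the branch to sterols, ran from 65.2 to 77.5 CPM (median 73.7) in WT striatum and from 56.4 to 64.3 CPM (median 59.1) in Q175 vehicle striatum. In the cortex it ran from 88.1 to 106.6 CPM (median 94.9) in WT and from 77.0 to 86.3 CPM (median 79.1) in Q175 vehicle mice. The groups did not overlap in either tissue, and the log2 changes were close, at -0.27 ± 0.0517 (adjusted p = 2.82e-05) and -0.24 ± 0.0423 (adjusted p = 1.42e-05). Msmo1 (ENSMUSG00000031604, chromosome 8, 64718139 to 64733792), a sterol methyl oxidase, changed more in the striatum. It ran from 64.9 to 86.2 CPM (median 78.8) in WT striatum and from 52.4 to 63.8 CPM (median 54.9) in Q175 vehicle striatum, with no overlap (-0.47 ± 0.0663, adjusted p = 1.04e-07). Its cortical levels ran from 72.7 to 92.2 CPM (median 86.6) and from 69.8 to 78.2 CPM (median 71.0), with overlap (-0.24 ± 0.0554, adjusted p = 0.000602).

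Cyp51 (ENSMUSG00000001467, chromosome 5, 4081145 to 4104746), the lanosterol demethylase, ran from 41.6 to 51.2 CPM (median 47.4) in WT striatum and from 38.2 to 45.8 CPM (median 41.8) in Q175 vehicle striatum. Cortical levels ran from 62.4 to 74.7 CPM (median 68.5) in WT and from 53.5 to 61.4 CPM (median 58.6) in Q175 vehicle mice. The cortical groups did not overlap and the striatal ones did, with log2 changes of -0.24 ± 0.0478 (adjusted p = 9.84e-05) and -0.18 ± 0.0579 (adjusted p = 0.00776), the latter not called with the tag term (-0.19, adjusted p = 0.0514). Nsdhl, Dhcr7 and Sc5d, enzymes of the later steps, were lower in the cortex by 0.13, 0.14 and 0.09 on the log2 scale. Hsd17b7, a sterol ketone reductase, was higher in the striatum by 0.19 ± 0.0756 (adjusted p = 0.0402). That call was lost with the tag term (0.19, adjusted p = 0.131) and with the replicate block (0.17, adjusted p = 0.057), and over all alternatives the change was 0.16 to 0.28. Sqle and Lss, which lie between Fdft1 and Cyp51 in the pathway, did not pass the test in either tissue (log2 -0.05 to 0.06), nor did Tm7sf2 and Ebp (-0.11 to 0.02). The call of Hsd17b7 was lost without WT vehicle F1, M2, M3 or M4 and without F1, F2 or F4 of the Q175 vehicle mice, with changes of 0.16 to 0.21 over 16 refits that left out 1 mouse each. The cortical call of Sc5d was lost in 12 of 16 such refits (-0.11 to -0.08), those without Q175 vehicle M1, F1, M2, F2, F4 or F5 and those without WT vehicle M1, F1, F2, F3, F4 or F5. It was also lost without the filter on low counts (-0.08) and on centred FPKM.

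**Figure D3:**
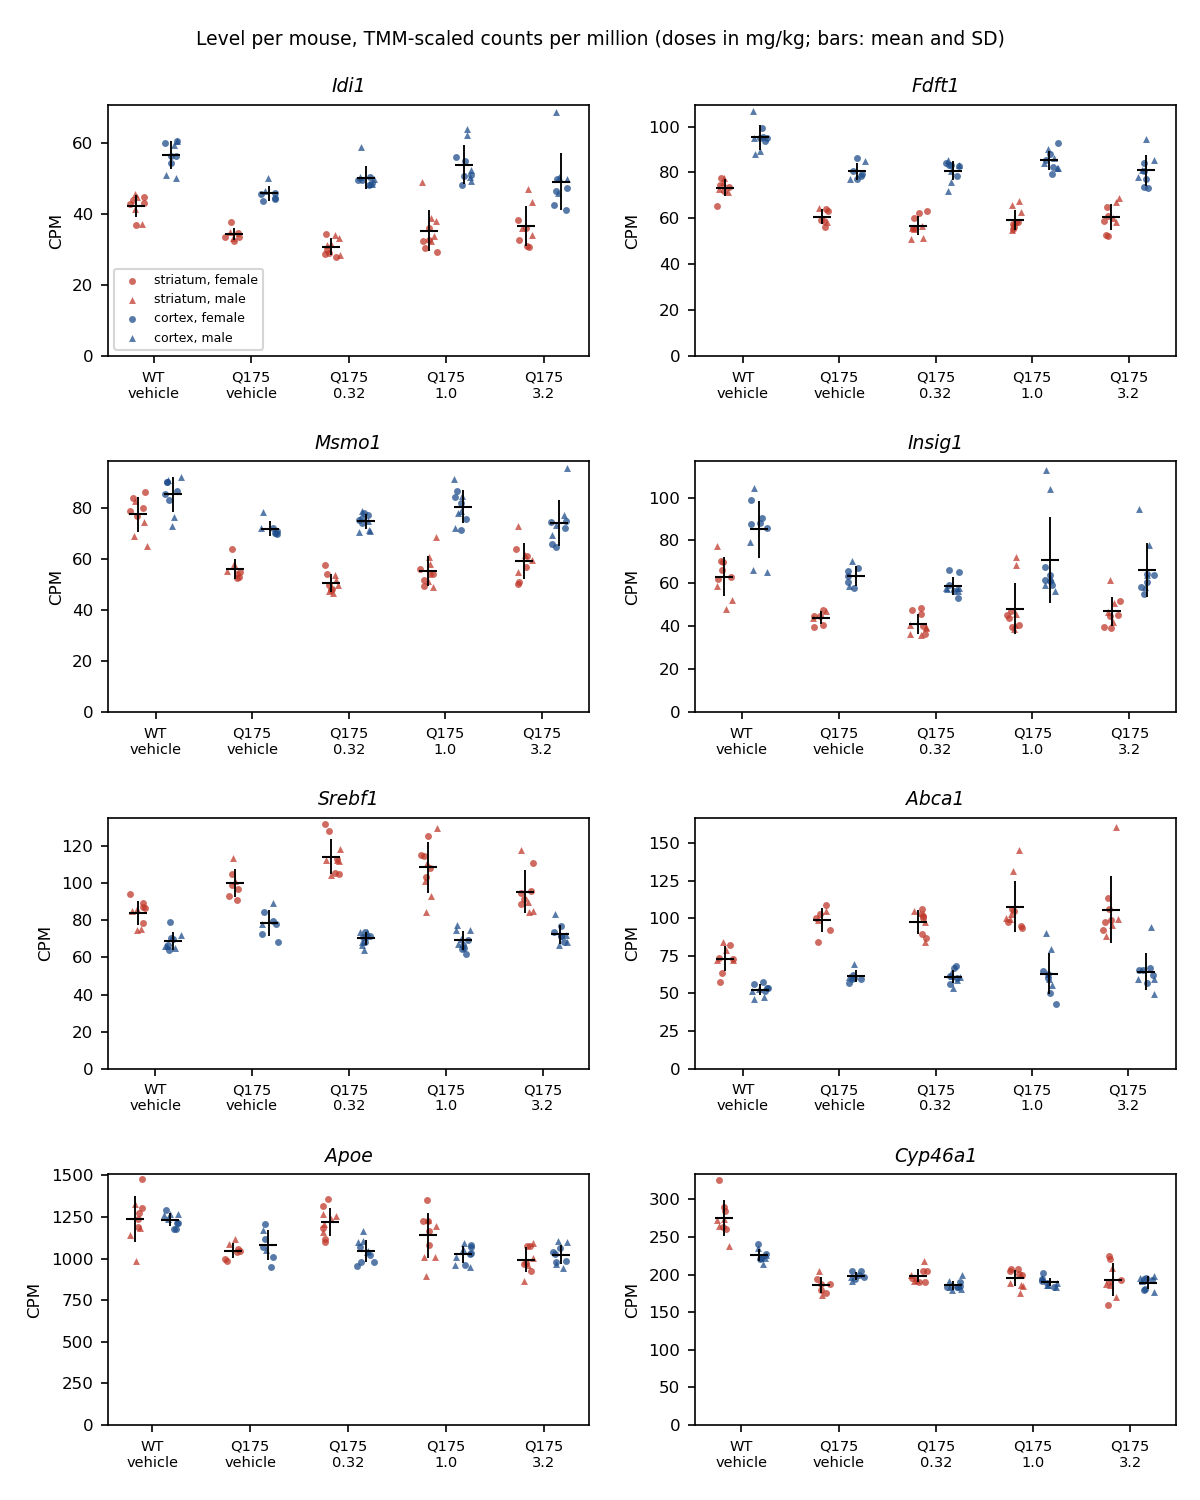
Level per mouse in TMM-scaled CPM (y axis, from zero) of 8 sterol genes over the 5 arms (x axis, doses in mg/kg), with circles for females, triangles for males and black bars for mean and SD. Cyp46a1 in the striatum has a WT median of 273 CPM and a median of 187.4 CPM with Q175 and vehicle, and the dosed medians lie between 190.8 and 199.6 CPM.

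Of the 5 genes of SREBP control 1 was higher and 2 lower in the striatum, and 2 were higher and 1 lower in the cortex. A change in either direction was called for 45.1% of all genes in the striatum and 30.4% in the cortex. Insig1 (ENSMUSG00000045294, chromosome 5, 28071363 to 28078662), the retention protein that is itself an SREBP target, ran from 48.0 to 77.2 CPM (median 63.0) in WT striatum and from 39.7 to 47.6 CPM (median 44.7) in Q175 vehicle striatum. The groups stood just apart, and the log2 change was -0.51 ± 0.109 (adjusted p = 0.00013). Cortical Insig1 ran from 65.4 to 104.4 CPM (median 87.5) in WT and from 57.8 to 70.5 CPM (median 63.3) in Q175 vehicle mice, with overlap (-0.41 ± 0.115, adjusted p = 0.00458). Srebf1 (ENSMUSG00000020538, chromosome 11, 60199089 to 60222581), whose protein drives fatty acid genes more than sterol genes, was higher in Q175. It ran from 74.7 to 94.1 CPM (median 85.9) in WT striatum and from 91.1 to 113.7 CPM (median 99.0) in Q175 vehicle striatum (0.24 ± 0.0694, adjusted p = 0.00333). In the cortex it ran from 64.2 to 79.0 CPM (median 66.8) in WT and from 68.1 to 89.6 CPM (median 78.3) in Q175 vehicle mice (0.20 ± 0.0484, adjusted p = 0.00143). The ranges of Srebf1 overlapped in both tissues.

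Srebf2 (ENSMUSG00000022463, chromosome 15, 82147181 to 82205379), which encodes the main driver of sterol synthesis, was lower in the striatum. It ran from 184.8 to 233.9 CPM (median 212.7) in WT striatum and from 172.4 to 205.0 CPM (median 183.9) in Q175 vehicle striatum, with overlap (-0.21 ± 0.0574, adjusted p = 0.00264), and the call was lost with the tag term (-0.12, adjusted p = 0.154). Its cortical levels ran from 248.6 to 267.4 CPM (median 256.6) and from 242.1 to 263.1 CPM (median 248.4), and the test was not passed (-0.03 ± 0.0345, adjusted p = 0.503). Scap, the escort of the SREBPs, was higher in the cortex by 0.08 ± 0.0311 (adjusted p = 0.0373). That call was lost without Q175 vehicle F1, F2, F4 or F5 or without WT vehicle F2, F3, M2 or M4 (0.07 to 0.10 over 16 refits). It was also lost with the replicate block (0.08, adjusted p = 0.0599), the tag term (0.06, adjusted p = 0.254) and centred FPKM (0.07, adjusted p = 0.116). Insig2, a retention protein whose gene is not driven by SREBP in the same way, did not pass the test in either tissue.

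Of the 8 transport genes 2 were higher and 3 lower in the striatum, and 1 was higher and 2 lower in the cortex. Among all genes tested 45.1% were called in the striatum and 30.4% in the cortex. Abca1 (ENSMUSG00000015243, chromosome 4, 53030787 to 53159895), the exporter that loads cholesterol on apolipoproteins, ran from 57.7 to 84.2 CPM (median 72.8) in WT striatum and from 84.3 to 108.9 CPM (median 100.1) in Q175 vehicle striatum. The lowest Q175 vehicle library lay just above the highest WT library, and the log2 change was 0.46 ± 0.0880 (adjusted p = 2.99e-05). Cortical levels ran from 46.4 to 57.7 CPM (median 53.0) and from 57.1 to 69.4 CPM (median 60.5), with a narrow overlap, and the test was not passed (0.23 ± 0.0958, adjusted p = 0.0581). Apoe (ENSMUSG00000002985, chromosome 7, 19696109 to 19699188) ran from 987.5 to 1478 CPM (median 1240) in WT striatum and from 988.6 to 1116 CPM (median 1044) in Q175 vehicle striatum (-0.25 ± 0.0633, adjusted p = 0.00121). In WT cortex it had a median of 1238 and a highest value of 1290 CPM (mean 1235 ± 40.0, SD, n = 9), and it ran from 948.9 to 1210 CPM (median 1071) in Q175 vehicle cortex (-0.18 ± 0.0404, adjusted p = 0.000409). Its ranges overlapped in both tissues, and in the striatum the whole Q175 vehicle range lay within the WT range.

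Npc1, which moves cholesterol out of lysosomes, was higher by 0.17 ± 0.0553 in the striatum and by 0.10 ± 0.0330 in the cortex, the latter not called with the tag term (0.11, adjusted p = 0.0508). Stard4, a cytosolic sterol carrier, was lower in both tissues (-0.12 ± 0.0492 and -0.20 ± 0.0529), and the exporter Abcg1 was lower in the striatum (-0.12 ± 0.0385, adjusted p = 0.0104). The striatal calls of Stard4 and Abcg1 were lost with the tag term (-0.09 for each, adjusted p = 0.278 and 0.122). That of Stard4 was also lost without the filter on low counts (-0.11), and without Q175 vehicle M1, F1, M2, F2 or F3 or without WT vehicle M1, M4 or F4 (-0.15 to -0.10 over 16 refits). Npc2 and the liver X receptors Nr1h2 and Nr1h3 did not pass the test in either tissue, with log2 changes between 0.02 and 0.08.

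Cyp46a1 (ENSMUSG00000021259, chromosome 12, 108334381 to 108362234) showed the largest genotype change of the 33 members in the striatum, and in the cortex the one with the smallest adjusted p. In the striatum it ran from 238.4 to 325.4 CPM (median 273) in WT and from 173.5 to 204.6 CPM (median 187.4) in Q175 vehicle mice, so that its mean was 67.7% of that in WT. The groups were well apart, and the log2 change was -0.57 ± 0.0523 (adjusted p = 1.51e-12). Cortical levels ran from 213.7 to 240.2 CPM (median 222.7) and from 191.7 to 205.0 CPM (median 197.0), again with no overlap (-0.19 ± 0.0266, adjusted p = 2.52e-07). Over the other settings, and over refits without each vehicle mouse in turn, the change stayed between -0.61 and -0.45 in the striatum and between -0.20 and -0.14 in the cortex, past the threshold throughout. Soat1, which esterifies cholesterol, did not pass the test in either tissue (0.11 ± 0.0620 and -0.07 ± 0.0547). Groups of Q175 and WT vehicle mice did not overlap for 6 members in the striatum (Acat2, Fdft1, Msmo1, Insig1 and Cyp46a1 lower, Abca1 higher), where 15% of all genes tested did not overlap. They did not overlap for 4 in the cortex (Idi1, Fdft1, Cyp51 and Cyp46a1, all lower), where 11.8% of all genes did not.

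Marker levels of several cell types differed between the same mice. The counts of markers called are to be read beside 45.1% of all genes called in the striatum and 30.4% in the cortex. Summed over 9 astrocyte markers the level was 4140 to 5369 CPM in WT and 3619 to 3950 CPM in Q175 vehicle striatum, with 7 of 9 lower and 2 higher, and 4921 to 5657 against 3706 to 4291 CPM in the cortex, with 7 lower and 1 higher. Summed over 9 oligodendrocyte markers it was 6137 to 7541 against 4632 to 5803 CPM in the striatum, with 4 lower, and 2195 to 3033 against 1824 to 2216 CPM in the cortex, with 4 lower and 2 higher. Summed over 9 medium spiny neuron markers it was 6244 to 8379 against 3157 to 3749 CPM in the striatum, with 8 lower, and 589.3 to 771.4 against 360.4 to 521.3 CPM in the cortex, with 9 lower. Over 5 pan neuronal markers it was 2746 to 3234 against 2560 to 3017 CPM in the striatum, with 3 lower and 1 higher. In the cortex it was 4378 to 4929 against 3876 to 4323 CPM, with no overlap, 3 lower and 2 higher. Over 7 cortical excitatory neuron markers the cortical sums were 1523 to 1707 against 1355 to 1507 CPM, again with no overlap, and 3 were lower. Of 9 microglia markers 3 were higher in the striatum and 2 in the cortex, and 0 were lower. Their sums overlapped, at 458.9 to 598.8 against 534.4 to 608.1 CPM and at 383.7 to 437.2 against 415.6 to 467.6 CPM. No marker of these lists was at 0 in any group. The part of these levels in the changes of the sterol genes was not tested.

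Other genes of lipid handling, from 4 lists chosen with earlier results of these data known, showed changes in both directions. Their counts stand beside 45.1% of all genes called in the striatum (23.2% lower, 21.9% higher). In the cortex the share was 30.4% (16.4% lower, 14% higher). Of 10 SREBP targets of fatty acid synthesis 6 were lower and 3 higher in the striatum, and 4 lower and 2 higher in the cortex. Fads1, a desaturase, was lower in both (-0.34 ± 0.0378 and -0.31 ± 0.0309), Acly, which supplies acetyl units, was lower in the striatum (-0.25 ± 0.0290), and Acaca and Me1 were higher there (0.26 ± 0.0391 and 0.28 ± 0.0644). Of 14 lipoprotein receptors and carriers 5 were lower and 3 higher in the striatum, and 4 lower and 2 higher in the cortex. Abca7, an exporter related to Abca1, was higher (0.79 ± 0.0907 and 0.52 ± 0.0605) and Lcat, which esterifies lipoprotein cholesterol, lower (-0.54 ± 0.0893 and -0.39 ± 0.0783). Of 5 enzymes of other oxysterols 3 were higher in the striatum and 1 in the cortex, and 0 lower. Cyp39a1, which acts on the product of Cyp46a1, was higher in the striatum by 0.53 ± 0.0896 (adjusted p = 2.96e-06) and did not pass in the cortex (-0.07 ± 0.0714). Of 8 genes on other branches of the mevalonate pathway 2 were higher and 1 lower in the striatum, and 2 higher in the cortex.

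The genotype change itself differed between the tissues for 6 members, against 22.1% of 18014 genes (9.92% more positive, 12.2% more negative in the striatum), in the test of the interaction with the mouse as a block. It was more negative in the striatum for Cyp46a1 (-0.39 ± 0.0627, adjusted p = 5.54e-06), Msmo1 (-0.23 ± 0.0542, adjusted p = 0.0013), Acat2 (-0.18 ± 0.0405, adjusted p = 0.000855) and Srebf2 (-0.18 ± 0.0628, adjusted p = 0.0345). It was more positive there for Hsd17b7 (0.27 ± 0.0529, adjusted p = 9.27e-05) and Abca1 (0.22 ± 0.0760, adjusted p = 0.031). Without the mouse as a block Cyp46a1 and Acat2 were called, with 16.8% of all genes, and the call of Srebf2 was also lost without the filter on low counts. For the other 27 members no difference between the tissues was called. Fdft1 and Idi1 are examples, with differences of -0.03 ± 0.0488 and 0.01 ± 0.0595. The effect of 3.2 mg/kg differed between the tissues for 0 members, against 1.28% of genes (1.19% more positive, 0.0888% more negative in the striatum). In that test 2 members had an unadjusted p under 0.05 by edgeR, and DESeq2 called 0.

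Doses of the inhibitor were compared with the same 7 Q175 vehicle mice, so the 3 comparisons of a tissue share their controls. In the striatum 2 members were higher at 0.32 mg/kg, where 2.49% of all genes were called (2.17% higher, 0.323% lower). At 1.0 mg/kg 0 members were called, against 1.07% of all genes (0.797% higher, 0.277% lower), and at 3.2 mg/kg 0 members, against 1.48% (1.33% higher, 0.15% lower). At 0.32 mg/kg Apoe had a median of 1222 and a highest value of 1361 CPM (mean 1222 ± 83.9, SD, n = 10), against 988.6 to 1116 CPM in vehicle mice, with a narrow overlap (0.23 ± 0.0622, adjusted p = 0.0387). Nr1h2 ran from 52.9 to 65.9 CPM (median 58.1), against 44.2 to 53.0 CPM in vehicle mice, also with a narrow overlap (0.25 ± 0.0689, adjusted p = 0.0438). Neither was called at 1.0 mg/kg (0.13 ± 0.0620 and 0.14 ± 0.0687) or at 3.2 mg/kg (-0.07 ± 0.0630 and -0.04 ± 0.0702). Both calls were lost with GC and length offsets, where the changes were 0.10 for Apoe and 0.09 for Nr1h2. They were also lost with the tag term (0.23 and 0.22), without the filter on low counts (0.24 and 0.25) and with a block for the replicate number (0.22 and 0.24), where the changes were about as large. Both were also lost without any 1 of Q175 vehicle F1, F2, F3, F4 or F5 or of 0.32 mg/kg F1, M3, M5 or F5, and that of Nr1h2 without 0.32 mg/kg M4 (0.22 to 0.26 for Apoe, 0.22 to 0.28 for Nr1h2). The GC content of their longest transcripts, 59.5% for Apoe and 60.6% for Nr1h2, was the highest of the 33 members. Calls over all genes changed under the same settings. The share called, 2.49% in the main fit, was 0.0578% with the offsets and 0.468% with the tag term. It was 0.509% without the filter and 0.347% with the replicate block. Over refits without 1 mouse it ran from 0.0173% (without Q175 vehicle F2) to 4.63% (without Q175 vehicle M2).

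At 3.2 mg/kg no striatal member changed by more than 0.13 on the log2 scale, in edgeR's test 1 member had an unadjusted p under 0.05, and DESeq2 called 0. At 1.0 mg/kg the largest change was 0.14, 4 members had an unadjusted p under 0.05, and DESeq2 called 0. Cyp46a1, at 67.7% of the WT mean in Q175 vehicle striatum, stood at 72.2%, 71.1% and 70.4% with the doses in rising order, with log2 changes against vehicle of 0.11 ± 0.0510, 0.08 ± 0.0509 and 0.06 ± 0.0519 that did not pass the test. Insig1 stood at 69.9% of the WT mean with vehicle and at 65.1%, 76.5% and 74.4% with the doses. Msmo1 stood at 72.2% with vehicle and at 65.5%, 71.5% and 76.3% with the doses. Abca1 stood at 135% with vehicle and at 134%, 147% and 145%. A linear trend over the 4 Q175 arms called 0 members in the striatum, where it called 1.77% of all genes (1.57% higher, 0.198% lower), with 4 members at an unadjusted p under 0.05 and 0 called by DESeq2.

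**Figure D4:**
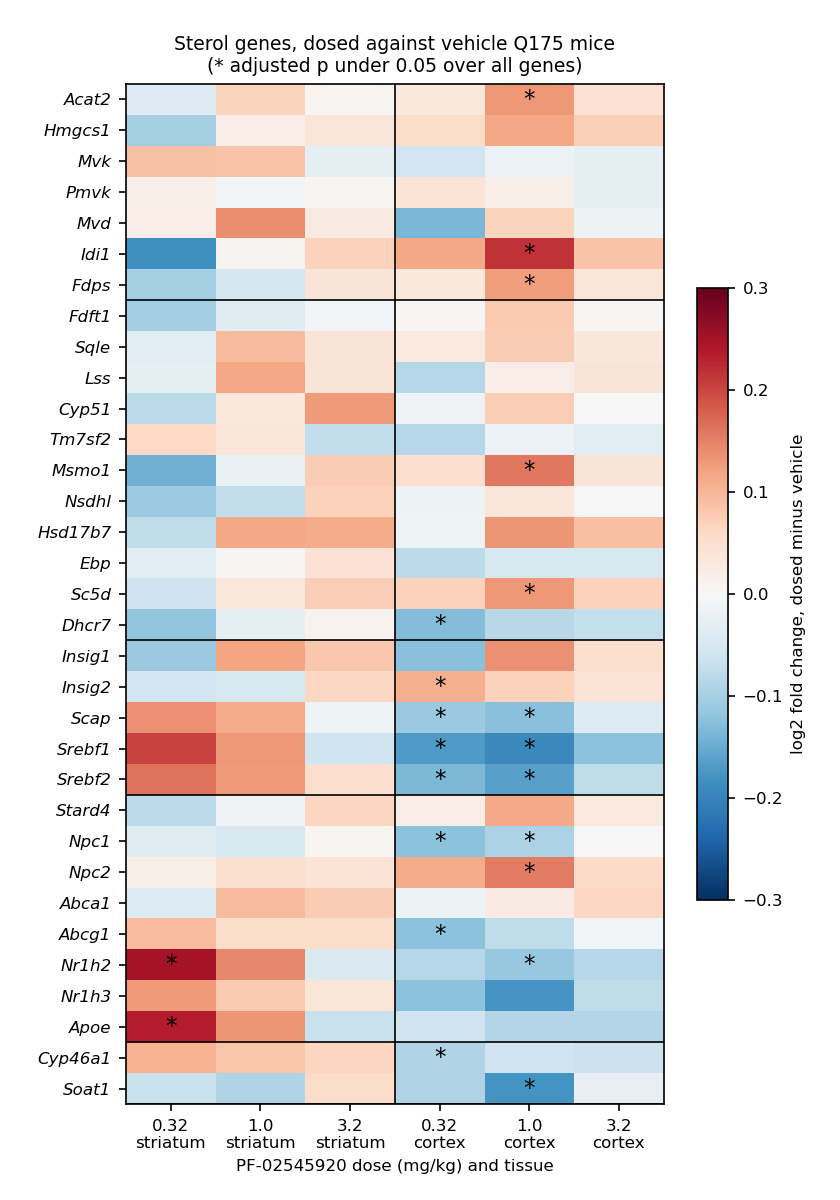
Log2 fold change of each sterol gene at each dose against Q175 vehicle mice, as colour, in the striatum (left 3 columns) and the cortex (right 3 columns), with genes grouped by role and stars for adjusted p under 0.05. Stars stand at 0.32 mg/kg in the striatum (2), and at 0.32 mg/kg (8) and 1.0 mg/kg (12) in the cortex, and none at 3.2 mg/kg in either tissue.

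In the cortex 1 member was higher and 7 lower at 0.32 mg/kg, where 10.2% of all genes were called (5.18% higher, 4.98% lower), and 6 were higher and 6 lower at 1.0 mg/kg, where 20.7% were called (10.9% higher, 9.8% lower). At 3.2 mg/kg 0 members and 0 of 17603 genes were called by edgeR, with 1307 genes and 5 members at an unadjusted p under 0.05, and DESeq2 called 3 genes and 0 members. The dose trend called 0 genes, with 756 genes and 3 members at an unadjusted p under 0.05, and DESeq2 called 0. The difference between the doses themselves was not tested.

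Synthesis genes were among the higher members at 1.0 mg/kg in the cortex. Idi1 ran from 47.9 to 63.7 CPM (median 51.6), against 43.5 to 50.1 CPM in vehicle mice, with overlap (0.22 ± 0.0622, adjusted p = 0.0108). Msmo1 ran from 71.4 to 91.4 CPM (median 80.4), against 69.8 to 78.2 CPM, with overlap (0.16 ± 0.0544, adjusted p = 0.0334). Acat2, Fdps and Sc5d, the last a late sterol desaturase, were higher by 0.13 ± 0.0434, 0.13 ± 0.0381 and 0.13 ± 0.0357, and Npc2 by 0.15 ± 0.0390. For Idi1 the mean stood at 81% of WT with vehicle, and at 88.9%, 95.3% and 86.9% with the doses.

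Control genes were among the lower members at both doses. Srebf2 ran from 214.5 to 241.5 CPM (median 227.4) at 0.32 mg/kg, just under the vehicle range of 242.1 to 263.1 CPM, and from 192.5 to 245.0 CPM (median 226.2) at 1.0 mg/kg, overlapping it. The log2 changes were -0.13 ± 0.0338 (adjusted p = 0.0097) and -0.16 ± 0.0338 (adjusted p = 0.000901). Srebf1 ran from 64.2 to 73.9 CPM (median 71.0) at 0.32 mg/kg and from 61.8 to 77.5 CPM (median 68.2) at 1.0 mg/kg, against 68.1 to 89.6 CPM, with overlap at both doses (-0.17 ± 0.0474, adjusted p = 0.0176, and -0.19 ± 0.0475, adjusted p = 0.0036). Scap was lower by 0.11 and 0.13 and Npc1 by 0.12 and 0.10 on the log2 scale. Insig2 was the higher member at 0.32 mg/kg (0.11 ± 0.0368, adjusted p = 0.0474), and Dhcr7, Abcg1 and Cyp46a1 were the other lower ones (-0.13 ± 0.0421, -0.12 ± 0.0301 and -0.09 ± 0.0260). At 1.0 mg/kg Nr1h2 and Soat1 were the other lower members (-0.11 ± 0.0360 and -0.18 ± 0.0538). Groups did not overlap for Dhcr7 and Srebf2 at 0.32 mg/kg, where 2.03% of all genes did not, and for 0 members at 1.0 mg/kg, where 1.79% of all genes did not.

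Fewer cortical members were called under some other settings. With GC and length offsets, added after the data were seen, Npc1 was the 1 member called at 0.32 mg/kg, with 1.21% of all genes, and Fdps and Npc2 were the 2 called at 1.0 mg/kg, with 4.89%. With the tag term 0 members were called at 0.32 mg/kg, with 1.86% of all genes. The change of Npc1 was then -0.14 (adjusted p = 0.0516) and that of Dhcr7 -0.15 (adjusted p = 0.0597), no smaller than without the term, and that of Srebf2 was -0.11 (adjusted p = 0.0876). Over all alternatives at that dose Npc1 stayed between -0.14 and -0.12 and Dhcr7 between -0.15 and -0.11, while Scap ran from -0.12 to -0.01 and Srebf2 from -0.14 to -0.03. The calls of Dhcr7 and Insig2 were also lost without the filter on low counts (-0.13 and 0.11) and with the replicate block (-0.13 and 0.10). At 1.0 mg/kg the tag term ended the call of Nr1h2 alone among the 12 (-0.11, adjusted p = 0.0701). The median GC content of the longest transcripts was 57.9% for the 7 lower members at 0.32 mg/kg, and at 1.0 mg/kg 58.1% for the 6 lower and 47.2% for the 6 higher members, against 50.6% over all 33. Without 1.0 mg/kg F1 and F4, 4 members were higher and 4 lower at that dose, with 12.2% of all genes.

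Several of these calls were lost without 1 mouse. At 0.32 mg/kg 0 members were higher and 3 lower without Q175 vehicle F2, where 5.22% of all genes were called in place of 10.2%. The member calls lost were those of Insig2, Cyp46a1, Scap, Srebf1 and Dhcr7. Over 17 refits the changes ran from -0.10 to -0.08 for Cyp46a1, from -0.12 to -0.10 for Scap and from -0.20 to -0.14 for Srebf1. The call of Srebf1 was also lost without Q175 vehicle M2, and that of Dhcr7 without Q175 vehicle M2 or F4 or 0.32 mg/kg F1, M1, F2 or M5 (-0.14 to -0.10). That of Insig2 was lost in 11 of 17 refits (0.10 to 0.12), those without Q175 vehicle M2, F2, F3, F4 or F5 or 0.32 mg/kg M1, F2, M2, M3, M5 or F4. At 1.0 mg/kg the call of Acat2 was lost without Q175 vehicle M1, F4 or F5 or 1.0 mg/kg M1 or M5 (0.10 to 0.14), and that of Nr1h2 without Q175 vehicle F4 (-0.13 to -0.10). That of Msmo1 was lost without Q175 vehicle M1, F1, F2, F4 or F5 or 1.0 mg/kg F1, M1 or F4 (0.14 to 0.18), and that of Npc1 without Q175 vehicle M1, F2 or F4 or 1.0 mg/kg F1, M4 or F4 (-0.11 to -0.08). Choroid plexus markers, 5 genes, summed to 38.9 to 430.6 CPM (median 243.3) in Q175 vehicle cortex and to 19.3 to 336.0 CPM (median 25.2) at 1.0 mg/kg. The log2 changes of all 5 were negative, from -2.07 to -0.70 with a median of -0.96, and 1 passed the test. Their part in the results was not tested.

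**Figure D5:**
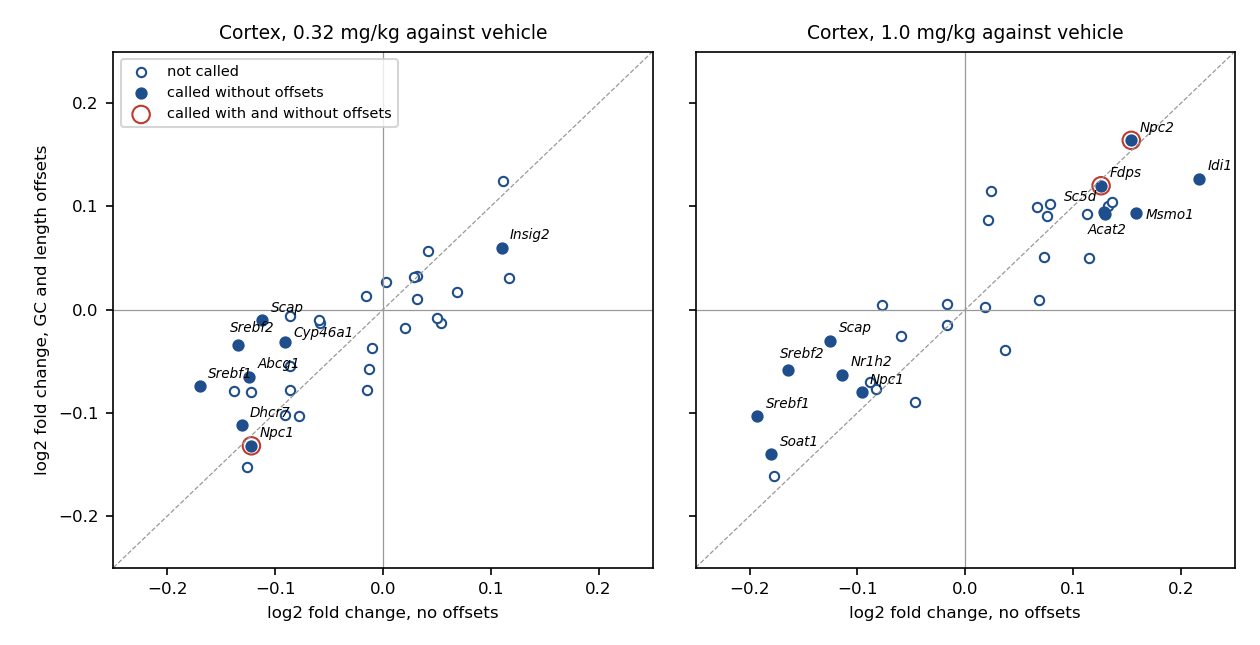
Log2 fold change of each sterol gene in the cortex at 0.32 mg/kg (left) and 1.0 mg/kg (right) without offsets (x axis) and with GC and length offsets (y axis), with filled points for members called without offsets, red rings for those called in both and a dashed line of equal values. Scap, Srebf1 and Srebf2 lie closer to zero with offsets, and Npc2 at 1.0 mg/kg lies near the line, at 0.15 and 0.16.

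Females and males differed for 2 members in the striatum, 1 higher and 1 lower in females, against 10.5% of all genes (4.79% higher, 5.68% lower). In the cortex 0 members differed, against 2.21% (1.16% higher, 1.05% lower). Dhcr7, which makes the last double-bond reduction in one branch of the pathway, was higher in striatum of females (0.12 ± 0.0328, adjusted p = 0.0178). Hsd17b7 was lower in females (-0.15 ± 0.0449, adjusted p = 0.0237). The call of Hsd17b7 was lost with GC and length offsets (-0.11, adjusted p = 0.0754) and that of Dhcr7 on FPKM as deposited (0.10, adjusted p = 0.0523). In the cortex 7 members had an unadjusted p under 0.05 in edgeR's test and DESeq2 called 0.

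The spread between mice of a group differed among the members. The SD of log2 CPM after removal of arm and sex was 0.124 at the median of the members in the striatum and 0.0878 in the cortex, against 0.132 and 0.116 over all genes. Insig1 was the most variable member in both tissues, with an SD of 0.221 in the striatum and 0.234 in the cortex. Mvd, Nr1h3 and Abca1 followed in the striatum (0.195, 0.188 and 0.179). Cyp46a1 was the least variable member in the cortex, with an SD of 0.0496, lower than that of all but 3.73% of the genes tested. The level of a gene was not taken into account in these SD values. Nr1h3 had the lowest mean count of the members, and Cyp46a1 stood below Apoe alone by FPKM in WT mice.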

How the data were processed

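RNA was measured by sequencing in striatum and cortex of the same 45 mice, 90 libraries in all. The authors deposited 1 table of expected counts and 1 of FPKM over 38561 genes. The submitters' processing notes name CASAVA 1.8.2 with no role. The aligner, quantifier, genome build, annotation and strand setting were not given in the sources used here. Within 1e-06, 81.5% of the counts as deposited were whole numbers, and all were rounded. Symbols and GRCm38 coordinates came from GENCODE M21 by Ensembl ID, which named 36639 genes holding 99.68% of counts.

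Groups were taken from the labels. Each tissue was fitted with edgeR 4.0.16 in R 4.3.3 (TMM scaling, filterByExpr, quasi-likelihood test) on all 45 libraries with arm and sex as terms, and the dose trend on 36 Q175 libraries. Tissues were compared in 1 fit of 90 libraries with the mouse as a block. P-values were adjusted by Benjamini-Hochberg over all genes tested, and those under 0.05 were called. SE values are derived from the F statistics, and CPM are TMM-scaled. Alternatives used DESeq2 1.42.0, limma 3.58.1 on log2(FPKM + 0.1), a filter-free fit, a replicate block, a tag covariate, GC and length offsets, and refits without single mice. The steps were tested on simulated data with known log2 changes. Of genes changed by 0.2, edgeR called 38.9% for genotype in the striatum, 45.7% in the cortex and 16.1% for the difference between tissues. Of genes changed by 0.8 it called 82.9%, 89.7% and 71.2%. The simulations changed few genes, drawn over all levels, while 45.1% and 30.4% of all genes were called for genotype in the data. These rates thus need not hold for the members. A member that was not called may still differ by a small amount.

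Members and lists were chosen with earlier results of these data known. Up to 12 members called in a genotype or dose comparison were given in full, ordered by role and taken by smallest p. The others are given by ranges and counts. Replicate numbers did not pair the arms: deviations of same-numbered mice correlated with a median r of 0.155 in the striatum (-0.250 to 0.401 over 83 pairs) and 0.141 in the cortex (-0.072 to 0.355), against -0.029 and -0.050 for mice with other numbers, and not every pair exceeded 0.1. Same-numbered mice were always of the same sex, other pairs were of the same or different sex, and sex was not removed. The contrast between these correlations thus also holds any sex difference. The tissues of 1 mouse are tied by the animal numbers of the labels, and their deviations correlated with a median r of 0.314 over 45 mice.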

Additional observations from a re-analysis of the deposited data

Results flagged for a closer look

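Each member was examined in each group of mice, which gave 330 sets of values. In 21 of these (6.36%) 1 mouse lay farther from the others than Dixon's critical value. Chance gives about 1 in 20 for independent sets, but these sets share mice over genes and are not independent. Values are TMM-scaled CPM. At 3.2 mg/kg M2 stood apart in the cortex and M4 in both tissues. M2 had the highest cortical level of Hmgcs1 (324.6, against 224.7 to 271.9 in the other mice), Idi1 (68.53, against 41.04 to 50.26) and Msmo1 (95.69, against 64.52 to 77.00). It was the highest of 9 mice for 12 of 18 synthesis genes in the cortex. Other groups also had such mice in the cortex. There 0.32 mg/kg M1 was highest for 10, 1.0 mg/kg M1 and WT vehicle F5 for 9 each, and Q175 vehicle M2 for 5. WT vehicle M2 was lowest for 12. In the striatum M2 of the 3.2 mg/kg group was highest for 8, as many as Q175 vehicle F4 in its group of 7. M4 had high Lss in the striatum (67.43, against 44.86 to 55.42) and the cortex (85.22, against 53.35 to 69.12), high Abca1 in the striatum (161, against 87.95 to 113.3) and the cortex (94.06, against 49.50 to 66.79), and low cortical Soat1 (15.88, against 20.68 to 23.39).

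In WT striatum Fdft1 was low in F4 (65.18), Insig2 in F2 (38.17) and Scap in M1 (84.14). In Q175 vehicle striatum Nsdhl was low in F1 (14.83) and Stard4 high in F4 (26.85), and in Q175 vehicle cortex Idi1 was high in M1 (50.07) and Msmo1 in M2 (78.18). At 0.32 mg/kg Cyp46a1 was high in the striatum of M5 (218.5), Idi1 and Tm7sf2 were high in the cortex of M1 (58.78 and 20.24), and Mvk was low in the cortex of M2 (17.85). At 1.0 mg/kg Idi1 was high in the striatum of M1 (48.96) and Npc2 in that of F5 (88.23).

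The genotype effect differed between the tissues, as the log2 change in the striatum minus that in the cortex, for Acat2 (-0.177), Msmo1 (-0.228), Srebf2 (-0.178), Cyp46a1 (-0.385), Hsd17b7 (0.274) and Abca1 (0.219) in edgeR's interaction test. Of all 18014 genes 22.1% were called in that test. Without the mouse as a block only Cyp46a1 and Acat2 of these members were called, with 16.8% of all genes.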

How the results depend on the processing

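No called member reversed its direction under any alternative tried. Of the recomputed member values 1254 kept direction and side of the threshold while 173 kept direction and missed it. Most of these values came from refits without single mice, which share nearly all libraries with the main fit, so the tally says little about other processing. In the genotype comparison of the striatum, FPKM as deposited gave 13 higher and 5 lower members in place of 4 and 12, and the library tag as a covariate gave 7 lower. Over all genes 55.4% and 36.7% were then called, in place of 45.1%. In the cortex the higher members went from 3 to 1 with the tag, and to 5 on FPKM and with only the groups compared. Of all genes 23.6%, 34.8% and 39.9% were called under these settings, in place of 30.4%. At 0.32 mg/kg the higher members of the striatum (2) and of the cortex (1) went to 0 without the filter, with a replicate block, with the tag and with GC and length offsets. In that order the share of all genes called was 0.509%, 0.347%, 0.468% and 0.0578% in the striatum, in place of 2.49%. In the cortex it was 4.29%, 7.19%, 1.86% and 1.21%, in place of 10.2%. With only the groups compared, 5 members were higher and 1 lower in the striatum, with 8.08% of all genes called in place of 2.49%. DESeq2 gave 2 higher members in the cortex, with 12.6% of all genes in place of 10.2%. The 7 lower members in the cortex at 0.32 mg/kg went to 0 with the tag and 1 with offsets. At 1.0 mg/kg offsets gave 2 higher and 0 lower, with 4.89% of all genes in place of 20.7%. For sex in the striatum FPKM gave 0 higher, and DESeq2, FPKM and centred FPKM gave 2 lower. In that order they called 13.1%, 12.1% and 9.49% of all genes, in place of 10.5%. With no replicate block for the mouse, the genotype effect differed between tissues for 0 members upward and 2 downward. The share of all genes was then 16.8%, in place of 22.1%. The cause was not tested in any of these cases.

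Leaving out 1 mouse each gave 3 to 5 higher and 11 to 12 lower members for genotype in the striatum, and 2 to 4 and 12 to 14 in the cortex. It gave 0 to 5 higher and 0 lower at 0.32 mg/kg in the striatum, 0 to 2 and 3 to 8 in the cortex, 4 to 6 and 4 to 7 at 1.0 mg/kg in the cortex, and 0 of either at 3.2 mg/kg in the striatum. The share of all genes called for genotype ran from 42.2% to 45.5% in the striatum and from 27.7% to 29.8% in the cortex. At 0.32 mg/kg it ran from 0.0173% to 4.63% in the striatum and from 5.22% to 13.4% in the cortex. It ran from 14.6% to 22.4% at 1.0 mg/kg in the cortex and from 1.24% to 1.83% at 3.2 mg/kg in the striatum. Samples with the same replicate number correlated best with their own number in 10 of 45 libraries in the striatum and 11 of 45 in the cortex. No paired analysis was possible for sex because the numbers run within each sex. GC and length offsets, centred FPKM and the refits at 0.32 and 1.0 mg/kg were chosen after seeing the data.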
